A study of Mus musculus with 10 samples.

Results

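The trophectoderm transcription factors examined here are Cdx2, Eomes, Gata3, Gata2, Tfap2c, Tfap2a, Tead4 and Id2, 8 genes of the 16936 that the array annotation names with a single symbol. They were chosen by name as factors of this lineage, with earlier results of these data known, and each was read at every probe set (a group of short probes for one transcript) that carries its symbol alone, 18 in all. The samples were whole mouse embryos at 3.0 dpc (days post coitum), taken from the oviduct and hybridised singly to Affymetrix arrays. There were 5 wild-type (WT) and 5 Klf5 knock-out (KO) embryos, named here WT1 to WT5 and KO1 to KO5. Klf5 encodes a zinc finger transcription factor, and its loss was the sole genotype difference that the labels give. The labels name no strain, litter or sex and do not say which part of Klf5 the allele removes, so every p-value rests on the spread among single embryos alone.

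The trophectoderm is the outer epithelium of the early mouse embryo, which pumps the blastocyst fluid and later forms the placenta. TEAD4 is a DNA-binding partner of the coactivator YAP, and in outer cells, where Hippo signalling is low, the pair switches on Cdx2. CDX2, a homeobox factor, holds the inner cell mass programme down in these cells, and EOMES, a T-box factor, and GATA3 act beside or after it in trophoblast. AP-2 gamma, the product of Tfap2c, binds the Cdx2 gene and acts early in the lineage, AP-2 alpha (Tfap2a) is its paralogue, GATA2 is a relative of GATA3, and ID2 is a helix-loop-helix protein that blocks the DNA binding of E proteins.

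The knock-out was visible in the targeted transcript. At probe set 1451021_a_at Klf5 read 3201, 4183, 4012, 1096 and 1726 in WT1 to WT5 and 22.4, 14.0, 20.6, 49.2 and 15.1 in KO1 to KO5, in units of deposited intensity, so each embryo followed its label. Its probe set 1451739_at did not follow (9.20 ± 0.37 against 9.91 ± 0.36, SD, n = 5; difference 0.71, adjusted p = 0.248), 1430255_at was dim in both genotypes (4.90 and 4.81), and a probe set outside the deleted part checks nothing. Array medians lay between 39.97 and 43.56. The bacterial bioB control, added at hybridisation, split the arrays into a high set (WT1, WT2, WT3, KO1 and KO2, at 8.36 to 8.95) and a low set (WT4, WT5, KO3, KO4 and KO5, at 6.16 to 6.69), and values within each set are given where they bear on a member. Of the trophectoderm markers, all 7 in the table, 3 of them members, lay above the level filter described next, which averages all 10 embryos. Of the markers of other cells, 5 of 7 for cumulus and granulosa cells, 1 of 6 for oviduct epithelium and 4 of 7 for blood did. Krt7 and Tspan8 averaged 6.71 and 6.69 in WT embryos, but 5.52 and 5.10 in KO embryos, below the filter level of 5.55. Summed intensities of the trophectoderm markers, led by Krt8 and Krt18, were 16726 to 34469 among WT and 3726 to 6925 among KO embryos. The sums of the inner cell mass list (569 to 2846 and 1779 to 4689), the primitive endoderm list (335 to 863 and 583 to 1317), the cumulus list (951 to 2502 and 884 to 1685), the oviduct list (127 to 160 and 122 to 156) and the blood list (244 to 337 and 266 to 285) overlapped between genotypes. In whole embryos, fewer cells of a type and less RNA per cell cannot be told apart.

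Levels are log2(intensity + 16), and differences are KO minus WT on that scale, where 1 unit is close to a doubling for bright probe sets and understates the change of dim ones. Probe sets whose mean level lay below 5.55, the 40th percentile of all, were not tested. This left 16 of the 18, with all 8 genes still represented. The dim Cdx2 probe set (1422074_at, 5.37 in WT and 5.33 in KO) and the dimmest Id2 probe set (1453596_at, 5.03 and 5.14) were the ones left out. Of the 16, 0 passed an adjusted limma p of 0.05, against 0.367% of the 23174 tested over the array. At an unadjusted p below 0.05 there were 2 of 16, both of Tfap2c, against 10.1% of all tested. The genotypes did not overlap at 1 of the 16, again of Tfap2c, against 2.33% of all tested. In direction, 11 were lower and 5 higher in KO embryos, with a median difference of -0.12 against -0.0026 over all tested.

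**Figure D1:**
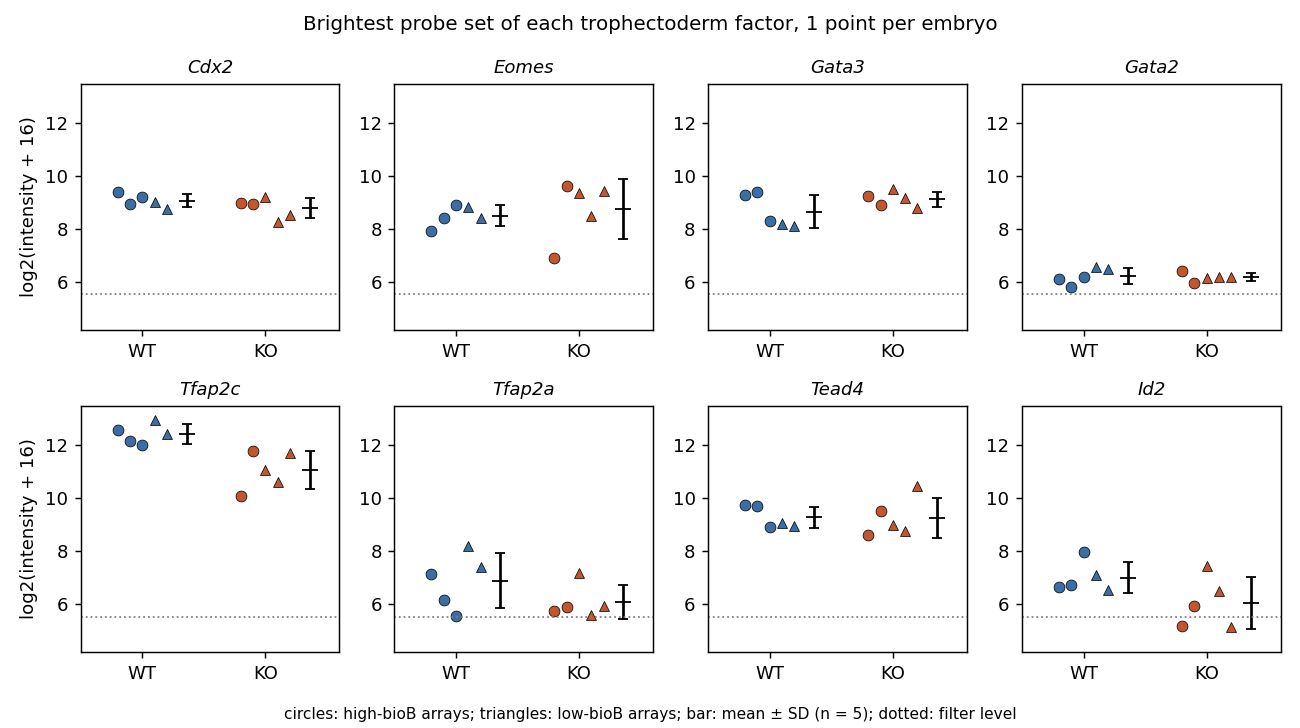
Level of each factor in every embryo, as log2(intensity + 16) at its brightest probe set, with WT in blue and KO in orange, mean ± SD at the right of each group (n = 5), and marker shape for the bioB set. For Tfap2c every KO point lies below every WT point, while for the other 7 genes the genotypes overlap.

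Tead4, whose product acts upstream of Cdx2, differed little on average between the genotypes and varied between embryos. Its brightest probe set (1426337_a_at) read 835, 816, 471, 529 and 484 in WT1 to WT5 and 378, 716, 491, 416 and 1383 in KO1 to KO5. The KO embryos spanned the whole WT range and passed it at both ends, with KO1 lowest and KO5 highest of the 10. The means were 9.28 ± 0.40 and 9.27 ± 0.74 (SD, n = 5), a difference of -0.02 with a 95% confidence interval of -0.77 to 0.73 (adjusted p = 0.998). An interval of this width does not show that the levels were equal. The other probe set (1460683_at) was tighter, with WT embryos at 148 to 261 and KO embryos at 162 to 274. Its difference was -0.08 (95% confidence interval -0.49 to 0.33).

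Cdx2, the homeobox factor downstream of TEAD4, read above the filter level in every embryo of both genotypes. At its tested probe set (1422075_at) it read 671, 482, 575, 515 and 424 in WT1 to WT5 and 501, 478, 584, 296 and 355 in KO1 to KO5. KO4 and KO5 lay below every WT embryo, and the other 3 KO embryos lay within the WT range. WT embryos averaged 9.08 ± 0.24 and KO embryos 8.80 ± 0.38 (SD, n = 5). The difference of -0.28 had a 95% confidence interval of -0.71 to 0.14 (adjusted p = 0.742), so a fall of more than 0.71 lies outside it. Within the high and low bioB sets it was -0.22 and -0.23.

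Because the missing protein binds DNA, the 250 bases upstream of the annotated starts of Cdx2 and Eomes, the factors of the trophectoderm and of its trophoblast descendants, are shown from RefSeq (build GRCm38.p6). Capitals mark matches, on either strand, to GGGNGNGG, a loose form of the GT and GC boxes that Kruppel-like and Sp factors share and which includes GGGCGGGG. The Cdx2 sequence is chr5:147307250-147307499 on the minus strand and the Eomes sequence chr9:118477939-118478188 on the plus strand, each written 5′ to 3′ and ending 1 base before the start site.
Cdx2: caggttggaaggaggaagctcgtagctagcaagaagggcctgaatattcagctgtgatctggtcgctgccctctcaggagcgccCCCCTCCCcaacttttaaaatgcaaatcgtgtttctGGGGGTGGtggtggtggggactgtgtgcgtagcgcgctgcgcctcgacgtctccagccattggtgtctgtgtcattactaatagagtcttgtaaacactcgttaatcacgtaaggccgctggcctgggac
Eomes: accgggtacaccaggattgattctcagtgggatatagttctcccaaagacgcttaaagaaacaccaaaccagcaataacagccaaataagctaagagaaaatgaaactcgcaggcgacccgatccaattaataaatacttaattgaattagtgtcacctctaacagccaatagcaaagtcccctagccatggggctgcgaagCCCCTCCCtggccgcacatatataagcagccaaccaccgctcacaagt
Cdx2 held 2 such matches and Eomes 1, and a match was found in 7 of the 8 upstream windows listed for 6 of the member genes. Of all 32851 windows of this length 45.9% hold one. The stricter GGGTGTGG was in 0 of the 8 member windows and in 3.2% of all. Binding was not measured in these samples, and a match is a run of letters, not a site.

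Eomes had the largest SD among KO embryos of any tested member probe set, 1.12 on the log2 scale. Its brighter probe set (1435172_at) read 229, 334, 472, 445 and 329 in WT1 to WT5 and 105, 772, 651, 352 and 678 in KO1 to KO5. KO2, KO3 and KO5 lay above every WT embryo and KO1 below all of them. The highest KO value was 7.38 times the lowest, where the same ratio among WT embryos was 2.06. The difference of 0.26 (8.52 ± 0.40 against 8.78 ± 1.12, SD, n = 5) had a 95% confidence interval of -0.79 to 1.31 (adjusted p = 0.952). The other probe set (1426001_at) showed the same embryo apart, at 210 to 374 in WT, 115 in KO1 and 295 to 426 in the other KO embryos. Its difference was 0.15 (95% confidence interval -0.57 to 0.87). Without KO1 the differences were 0.72 and 0.46 (adjusted p = 0.372 and 0.424), and within the high bioB set, which holds KO1, they were -0.17 and -0.40, with 0.48 and 0.44 in the low set.

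Gata3, a zinc finger factor that can drive trophoblast genes in parallel with CDX2, was not lower in KO embryos. Its one probe set (1448886_at) read 611, 657, 301, 281 and 263 in WT1 to WT5 and 593, 463, 723, 570 and 430 in KO1 to KO5. All 5 KO embryos lay above WT3, WT4 and WT5, and KO3 alone lay above WT1 and WT2 as well. The difference was 0.47 (8.67 ± 0.62 against 9.14 ± 0.29, SD, n = 5), with a 95% confidence interval of -0.15 to 1.09 (adjusted p = 0.669). It was 0.08 in the high and 1.01 in the low bioB set, and 0.14 without WT4 and WT5. With the bioB set as a block in the limma fit it was 0.54 (adjusted p = 0.518). Whether the Gata3 difference varied with the array set was not tested.

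Gata2, the related GATA factor of trophoblast and blood cells, was dim at both probe sets. At 1450333_a_at WT embryos read 41.2 to 79.9 and KO embryos 47.9 to 70.6, and at 1428816_a_at 38.0 to 68.1 and 34.1 to 57.4. WT4 and WT5 were the highest WT embryos at both. The differences were -0.05 (95% confidence interval -0.38 to 0.29) and -0.15 (-0.49 to 0.19), with adjusted p of 0.978 and 0.870. Both turned positive without WT4 and WT5, at 0.15 and 0.016.

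Tfap2c, which encodes AP-2 gamma, was the member that differed most between the genotypes, although it did not pass the test over all probe sets. Its brightest probe set (1436392_s_at) read 6169, 4523, 4163, 7906 and 5469 in WT1 to WT5 and 1082, 3528, 2110, 1569 and 3312 in KO1 to KO5. Every KO embryo lay below every WT embryo, and the closest pair was WT3 (4163) and KO2 (3528). WT embryos averaged 12.43 ± 0.37 and KO embryos 11.06 ± 0.72 (SD, n = 5), which differ by -1.37 (95% confidence interval -2.09 to -0.66; adjusted p = 0.133). In fold terms this is 2.59-fold lower, with an interval of 1.58 to 4.26 that is not adjusted for the number of probe sets. The difference was -1.31 within the high and -1.56 within the low bioB set (adjusted p = 0.550 and 0.169).

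The second Tfap2c probe set (1418147_at) pointed the same way with a smaller difference. It read 682, 534, 486, 323 and 283 in WT1 to WT5 and 149, 320, 195, 141 and 336 in KO1 to KO5. Here WT4 and WT5, 2 of the 3 brightest WT embryos at the first probe set, were the lowest WT embryos, and KO2 and KO5 reached their level. The difference was -0.99 (95% confidence interval -1.66 to -0.31; adjusted p = 0.249), and it was -1.30 in the high and -0.49 in the low bioB set. At the third probe set (1448977_at), with WT embryos at 228 to 418 and KO embryos at 144 to 457, the genotypes overlapped, with KO5 highest and KO1 lowest of the 10. Its difference was -0.30 (95% confidence interval -0.93 to 0.34; adjusted p = 0.858). All 3 probe sets were lower on average in KO embryos, with differences of -0.30, -0.99 and -1.37, and among KO embryos KO2 and KO5 were the 2 highest at each. The _s_at suffix of the first marks a set whose probes can match more than 1 transcript, and these transcripts are not named in the sources used here. The trophectoderm marker sum, which the bright Krt8 and Krt18 carry, lay lower in every KO embryo (16726 to 34469 in WT, 3726 to 6925 in KO), and its part in the Tfap2c difference was not tested. Krt8 alone of the 7 measured markers passed, and the members among them differed by -0.28 (Cdx2), 0.47 (Gata3) and 0.26 (Eomes).

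**Figure D2:**
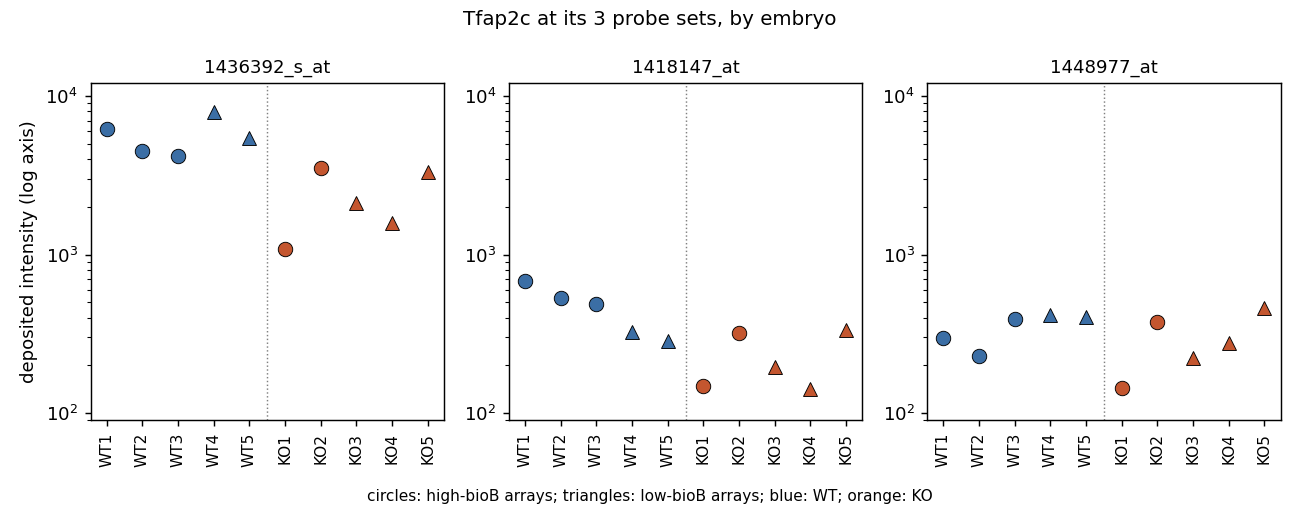
Deposited intensity of Tfap2c in each embryo at its 3 probe sets (log axis; WT blue, KO orange; circles and triangles for the high and low bioB arrays). At 1436392_s_at the KO embryos (1082 to 3528) lie below the WT embryos (4163 to 7906), at 1418147_at KO2 and KO5 reach the level of WT4 and WT5, and at 1448977_at the genotypes overlap.

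Tfap2a, the AP-2 alpha paralogue known best from neural crest and epidermis, was low and uneven between embryos. Its brightest probe set (1421996_at) read 125, 56.2, 31.3, 276 and 153 in WT1 to WT5 and 37.4, 44.4, 131, 32.3 and 45.9 in KO1 to KO5. WT4 was the highest and WT3 the lowest of the 10, and KO3 alone among KO embryos reached the level of the upper WT embryos. The difference was -0.81 (6.89 ± 1.03 against 6.08 ± 0.64, SD, n = 5; 95% confidence interval -1.89 to 0.26; adjusted p = 0.669). It was -0.47 in the high and -1.55 in the low bioB set, and -0.21 without WT4 and WT5. KO3 was again apart at 1426048_s_at (192, with 43.5 to 57.1 in the other KO embryos and 42.9 to 105 in WT), where the difference was -0.20 (95% confidence interval -0.95 to 0.56). It was -0.53 without KO3 (adjusted p = 0.437), -0.08 without KO2 and -0.03 without WT4 and WT5. The third probe set (1421995_at) was flat, with WT embryos at 32.8 to 40.5, KO embryos at 36.7 to 40.8 and a difference of 0.02 (-0.16 to 0.20).

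Id2, the helix-loop-helix inhibitor that marks outer cells early, varied widely from embryo to embryo. Its brightest probe set (1435176_a_at) read 84.6, 90.4, 235, 122 and 77.1 in WT1 to WT5 and 20.7, 45.3, 160, 76.2 and 19.4 in KO1 to KO5. KO1 and KO5 lay under the filter level, KO2 and KO4 also lay below every WT embryo, and KO3 lay above all WT embryos but WT3. The highest of the 10 values was 12.2 times the lowest, the widest ratio at any tested member probe set. The difference was -0.95 (7.00 ± 0.58 against 6.05 ± 0.97, SD, n = 5; 95% confidence interval -1.95 to 0.05; adjusted p = 0.533). It was -1.55 in the high and -0.45 in the low bioB set, and, because the KO values are dim, -1.23 with a pseudocount of 1 and -0.58 with 64. The second probe set (1422537_a_at) did not follow it, with WT embryos at 35.95 to 59.8, KO embryos at 41.9 to 80.4 and a difference of 0.16 (95% confidence interval -0.21 to 0.52).

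**Figure D3:**
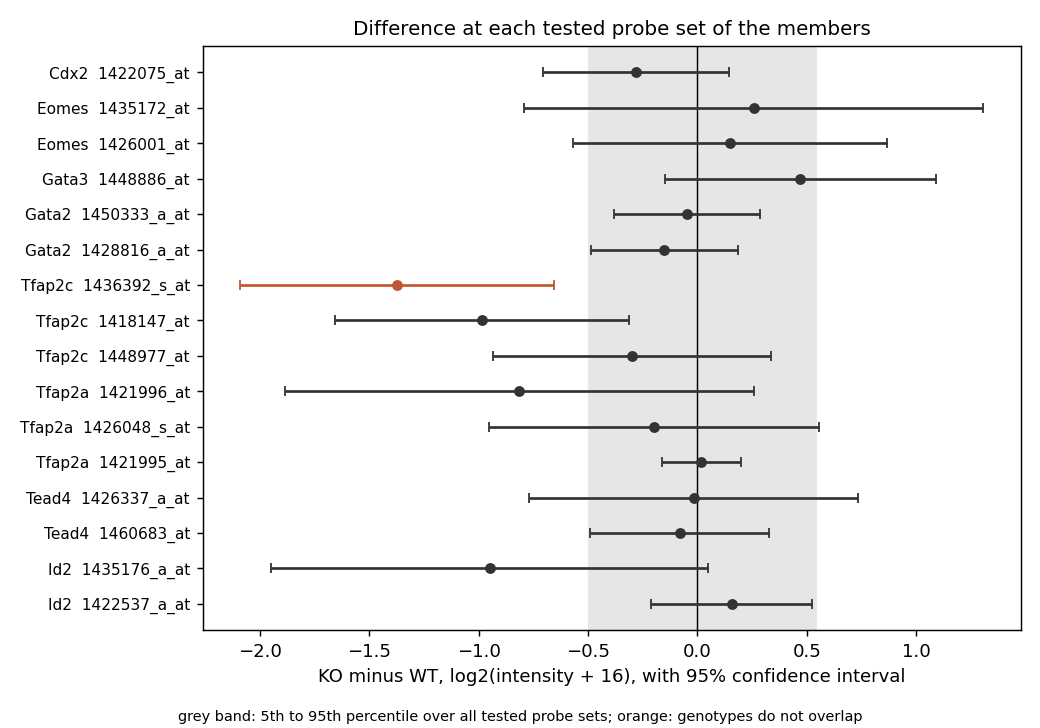
KO minus WT difference with its 95% confidence interval at each of the 16 tested probe sets of the members (horizontal axis in log2 units; grey band, 5th to 95th percentile of the differences of all tested probe sets, -0.50 to 0.54). The intervals of Tfap2c 1436392_s_at (-2.09 to -0.66) and 1418147_at (-1.66 to -0.31) lie below 0, and the other 14 include 0.

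No embryo was low or high for all members. KO1 was the lowest of the 10 embryos at 5 of the 16 tested probe sets, both of Eomes, 2 of Tfap2c and 1 of Tead4, and the highest at 0. Over all tested probe sets KO1 was the lowest at 6.92% and the highest at 9.13%. KO5 was highest at both Tead4 probe sets and at 1 of Tfap2c, and lowest at the brightest of Id2. KO3 was highest at 3, those of Gata3 and 1 each of Tfap2a and Id2. Among WT embryos WT4 was highest at 3 and lowest at 0, and WT3 was lowest at 3 and highest at 1. Over all tested probe sets KO5, KO3 and WT4 were the highest at 10.3%, 8.32% and 15.9%, and WT3 was the lowest at 8.77%. Probe sets of 1 gene share their RNA and are not independent.

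Genes around these factors were then read in 6 lists, each gene at its brightest tested probe set. The lists overlap in part. Esrrb is in both the trophoblast factor and inner cell mass lists, and Gata6 in both the paralogue and inner cell mass lists. Hand1 and Ascl2 are in both the trophoblast factor and ID partner lists. Over all tested probe sets 0.367% passed by limma and 10.1% had an unadjusted p below 0.05, with a median difference of -0.0026. These shares count every tested probe set, while the lists count 1 per gene. Of 24 paralogues of the members, 22 were in the table and 14 were tested, of which 0 passed by limma and 2 had an unadjusted p below 0.05 (6 higher, 8 lower, median -0.04). Tead1, the TEAD family member with the smallest p, averaged 6.35 ± 0.31 and 7.00 ± 0.39 in the 2 genotypes, higher in KO (SD, n = 5; difference 0.65, adjusted p = 0.273). Tfap2e and Id4 differed by -0.51 and -0.12 (adjusted p = 0.411 and 0.790), both at dim levels. Tfap2b and Tfap2d, the remaining AP-2 genes, lay below the level filter, at 4.90 and 4.96.

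Upstream of TEAD4 and CDX2, 23 of 25 genes of Hippo signalling, apical polarity and Notch signalling were tested, of which 0 passed by limma and 5 had an unadjusted p below 0.05 (9 higher, 14 lower, median -0.02). Lats1, a Hippo kinase that keeps YAP out of the nucleus, averaged 7.04 ± 0.22 in WT against 7.86 ± 0.27 in KO embryos (SD, n = 5; difference 0.82, adjusted p = 0.0607), without overlap between genotypes. Its adjusted p was 0.0488 after quantile normalization, the one alternative under which it passed. Stk4, the kinase upstream of LATS, also separated the genotypes (difference -0.53, adjusted p = 0.241), and its other probe sets differed by -0.51 and -0.12. Lats2, the other LATS gene of the list, went the opposite way to Lats1 at its brightest probe set (-1.03, adjusted p = 0.249), with overlap between genotypes. The remaining tested probe sets of Lats2 differed by 0.02 to 0.12. Pard6b, an apical polarity protein, differed by -1.04 and -0.69 at its probe sets (adjusted p = 0.132 at the brighter), and passed at the brighter only without KO5 (-1.23, adjusted p = 0.0499).

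Among 25 other trophoblast transcription factors and cofactors 22 were tested, and 0 passed by limma where they were read, with 2 at an unadjusted p below 0.05 (11 higher, 11 lower, median -0.0076). The smallest p were those of Klf6, a Kruppel-like factor (0.39), Grhl1, a grainyhead factor of epithelia (-0.61), and Hes1, a Notch target (-0.50). Klf6 had 3 further tested probe sets with differences of 1.13 to 2.68, of which 1 passed (1418280_at, 2.68, adjusted p = 0.00944), and it did not pass under 4 of the 23 alternatives.

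Of 33 effector genes of the trophectoderm, 28 were tested, of which 1 fell and 1 rose. At an unadjusted limma p below 0.05 there were 13 of the 28, against 10.1% of all tested probe sets. The median was 0.05 (15 higher, 13 lower). Krt8, a keratin of the trophectoderm, fell by 2.94, from a WT mean of 13.62 ± 0.38 to a KO mean of 10.67 ± 0.51 (SD, n = 5; 95% confidence interval of the difference -3.52 to -2.37, adjusted p = 0.00118). Krt18, its filament partner, differed by -2.20 without overlap (adjusted p = 0.0541), and passed under 5 of the 23 alternatives. Cubn, an endocytic receptor, rose by 2.14 (adjusted p = 0.0241), and did not pass under 8 of the 23 alternatives, with the values given in the closing section.

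On the opposing side, 17 of 18 inner cell mass genes were tested, of which 0 passed by limma and 3 had an unadjusted p below 0.05 (12 higher, 5 lower, median 0.34 against -0.0026 over all tested). The smallest p were those of Prdm14, a regulator of naive pluripotency (difference 2.38 without overlap, adjusted p = 0.0991), Klf2, a Kruppel-like factor (1.05, 0.434), and Pdgfra, a primitive endoderm receptor (1.03, 0.496). At its other tested probe set Pdgfra differed by 0.03. In a list of ID protein partners and other helix-loop-helix genes 8 of 10 were tested, 0 passed by limma and 2 had an unadjusted p below 0.05. The median was -0.01, and the differences lay between -0.43 (Max) and 0.25 (Myod1, at a dim level), which are those 2 genes. Max is a helix-loop-helix gene of this list but does not encode an E protein. Tcf12, an E protein that ID2 can bind, differed by 0.19 (adjusted p = 0.832).

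**Figure D4:**
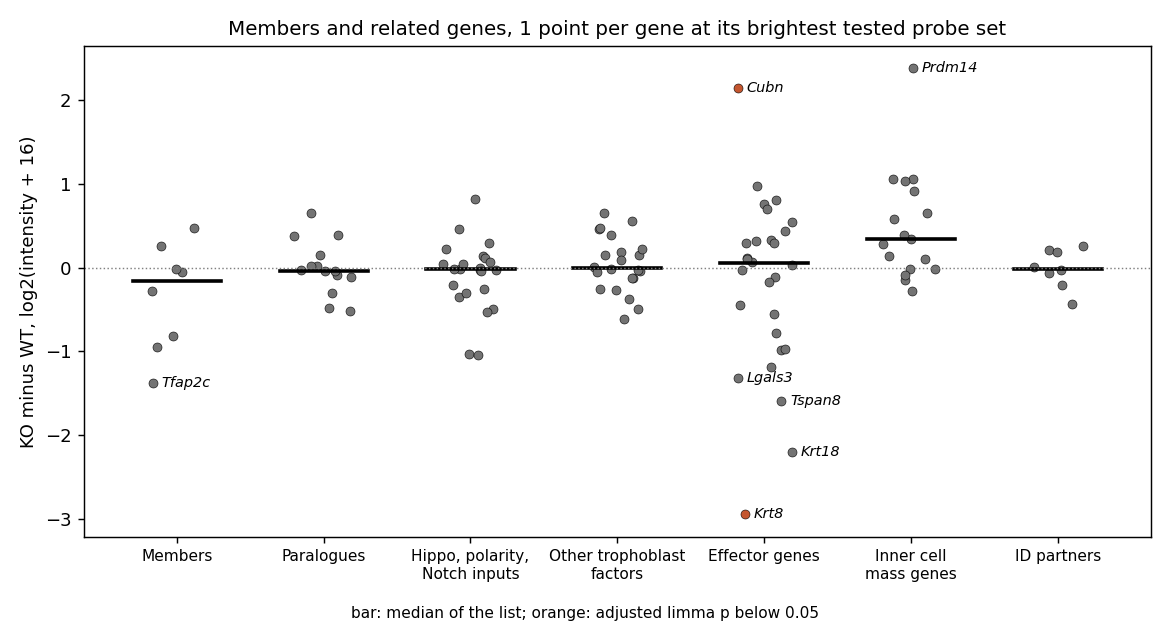
KO minus WT difference (log2 units) of each member and of each tested gene in the 6 related lists, 1 point per gene at its brightest tested probe set, with the median of each list as a bar and called genes in orange. Krt8 (-2.94) and Cubn (2.14) are the called genes, Tfap2c (-1.37) is the lowest member, and the members' median is -0.17.

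The transcripts whose levels ran most like Tfap2c over the 10 embryos were Elp2, Hspa9, Myo1c, Ehd1 and Esyt1. Their Pearson r with its brightest probe set ran from 0.900 (Esyt1) to 0.978 (Elp2), Spearman rho from 0.867 to 0.952, and r without KO1 and KO4, the embryos farthest from the median, from 0.754 to 0.954. Of the 5, Myo1c, a class I myosin, passed the genotype test (-2.39, adjusted p = 0.00595), and Elp2, an Elongator subunit, did not (-0.56, 0.281). For Cdx2 they were Cdyl2, Slc35b4, Dok4, Epcam and Mrpl15, with r from 0.879 to 0.936, rho from 0.794 to 0.939 and, without KO4 and KO5, r from 0.549 (Epcam) to 0.898 (Cdyl2). None of these 5 passed by limma, with differences from -0.75 to -0.10. They are the highest of 19864 probe sets searched for Tfap2c and 19866 for Cdx2, so their size describes the search as well as the genes, and the Tfap2c values also carry the genotype difference.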

How the data were processed

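Per the labels' protocols, cDNA was prepared from single embryos by the Kurimoto method, which yields short products near transcript 3′ ends, and labelled with biotin for Affymetrix arrays. By their range, the deposited values are linear-scale intensities, and the series' description names GeneSpring GX. How background, probe summary and scaling were handled is not given in the sources used here. Of 38676 probe sets, 53 controls were left out. Symbols came from the platform annotation, and all 8 members matched RefSeq by gene ID. Intensities were transformed as log2(intensity + 16) and compared between genotypes by limma (version 3.58.1, R 4.3.3; moderated fit of genotype alone, two-sided, Benjamini-Hochberg over 23174 probe sets), a procedure tested on simulated data. No positions of probe sets are given, since the annotation names no build.

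The members, the lists, the rule for named genes and the alternatives were chosen with earlier results of these data known. Named genes were all member probe sets, Klf5, from each list the genes that passed and the 3 of smallest p, and the 5 transcripts most like Tfap2c and Cdx2. Tfap2b, Tfap2d and Lats2 fall outside this rule and were named after their values were seen. Alternatives were quantile normalization, median centring, other filters and pseudocounts, a trended robust prior, array weights, the embryo number or bioB set as a block, each bioB set alone, WT4 and WT5 left out, and each embryo left out. Precision is limited by having 5 arrays per genotype.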

Additional observations from a re-analysis of the deposited data

Results flagged for a closer look

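In 3 of 36 groups of 5 embryos examined (16 member and 2 Klf5 probe sets in each genotype), 1 embryo lay far from the other 4, where chance gives about 1 in 20. For Eomes at 1426001_at, KO1 was low at a level of 7.03, with the other KO embryos at 8.28 to 8.79. For Tfap2a, KO3 was high at both 1421996_at (7.20, others 5.59 to 5.95) and 1426048_s_at (7.70, others 5.89 to 6.19). These 2 probe sets read the same gene in the same embryo.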

How the results depend on the processing

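Over the 23 alternatives the member probe sets were fitted 364 times (4 dim ones fell under the stricter filter). None of these fits passed an adjusted limma p of 0.05, and the smallest value was 0.100, for Tfap2c 1436392_s_at with the filter at the 60th percentile. The direction held in 342 fits and turned in 22. All 3 Tfap2c probe sets stayed lower in KO embryos in every alternative, at -1.56 to -1.14, -1.33 to -0.49 and -0.47 to -0.08, as did Cdx2 (-0.39 to -0.15), and Gata3 stayed higher (0.08 to 1.01). Within the high bioB set the direction turned for Eomes 1435172_at and 1426001_at (-0.17 and -0.40), Gata2 1450333_a_at and 1428816_a_at (0.16 and 0.23), Tfap2a 1421995_at (-0.037) and Id2 1422537_a_at (-0.049), and within the low set for Tead4 (0.37 at 1426337_a_at and 0.054 at 1460683_at). Array weights turned Gata2 1450333_a_at (0.022) and Tfap2a 1421995_at (-0.0056). Leaving out both WT4 and WT5 turned Gata2 (0.15 and 0.016) and Tfap2a 1421995_at (-0.049). Leaving out 1 embryo at a time, the range was -0.15 to 0.035 for Gata2 1450333_a_at, -0.015 to 0.037 for Tfap2a 1421995_at and -0.31 to 0.14 for Tead4 1426337_a_at. The cause of these turns was not tested.

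The count over all probe sets, 85, was 45 (without KO2) to 63 (without WT3) when 1 embryo was left out, and over 1.5 times smaller for 8 of the 10 (45 to 56, all but WT3 and KO5). It was 1 in the high set and 0 in the low set alone by limma (2105 and 3512 at an unadjusted p below 0.05), and 24 (5 higher, 19 lower) when embryo number was a replicate block. The numbers are shared by name only: same-numbered deviations correlated at -0.03 to 0.18 and only WT2 and WT4 correlated best with their own number. With that replicate block no member passed, and the smallest adjusted p was 0.157 (Id2 1435176_a_at). Of 33 further probe sets (Klf5, the list genes named by the rule, every called probe set of a list gene and the 10 most like Tfap2c or Cdx2), 725 of 754 fits kept direction and side of the threshold, and 1 turned (Epcam 1447899_x_at, 0.069 in the high set). Cubn was lost in the high and low sets (1.70 and 2.50), without WT4 and WT5 together (2.05), and without WT1, WT4, WT5, KO2 or KO4 (2.03 to 2.18, adjusted limma p up to 0.0606). Klf6 1418280_at was lost in the high and low sets (2.58 and 2.69), without WT4 and WT5 together (2.75) and with the replicate block (2.68, adjusted limma p 0.0808), and Myo1c within each set (-2.52 in both). Krt8 (-3.50 and -2.41) was lost within each set and Klf5 (-5.05) within the low set. With pseudocounts of 1 and 64, the differences of the dim Id2 1435176_a_at (-1.23 and -0.58) and Tfap2a 1421996_at (-0.96 and -0.56) moved most among members.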
